A study of Homo sapiens with 4 samples.

Results

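The unfolded protein response and the folding machinery of the endoplasmic reticulum (ER) were followed through 41 genes: the stress sensors and their transcription factors, chaperones, disulfide and proline isomerases, components of ER-associated degradation, and proteins of translocation and export. The members were chosen by gene function and found by symbol, and each of the 41 had 1 row among the 57815 rows of the deposited table. The table holds 1 RNA-seq library for each of 4 groups: AGS with siScramble, AGS with siHOXB9, MKN1 with siScramble and MKN1 with siHOXB9. AGS and MKN1 are established human gastric cancer cell lines. All 4 groups were transfected with Lipofectamine 2000. The labels call the siScramble cells WT and the siHOXB9 cells HOXB9 knockdown, and HOXB9 is a homeobox transcription factor whose target genes the study sought. The sources used here do not give the number of siRNAs, their dose or the time after transfection, and effects of the siRNA other than the loss of HOXB9 cannot be told apart from it. With 1 library per group, no difference between siHOXB9 and siScramble within a line has a replicate check.

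The ER is where secreted and membrane proteins fold. When unfolded protein builds up there, the chaperone BiP (HSPA5) leaves the sensors IRE1 (ERN1), PERK (EIF2AK3) and ATF6. IRE1 then splices the mRNA of XBP1 into the form that encodes an active transcription factor, ATF6 is cut in the Golgi to release another, and PERK slows translation and raises ATF4. These factors induce chaperones, isomerases and degradation components, which is why many of the genes carry short stress elements in their promoters. Gene-level values cannot separate spliced from unspliced XBP1, nor show cleavage of ATF6 or phosphorylation of PERK.

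ATF6 and XBP1 are known to act through short stress elements in promoters, so the members that hold these letters are shown first. The ER stress element (ERSE), which is CCAAT and CCACG with 9 free bases between them, was searched on both strands from 250 bases before to 50 bases after each RefSeq gene start (GRCh38.p14). Of 37 members with a promoter in that table, 8 held it, which is 21.6%, against 0.0916% of all 27305 genes. The members were chosen as genes of the response that these elements are known from. The excess over all genes was thus in part set by the choice and is not a separate result. Of 109 further genes of the pathway with a promoter, 1 held ERSE. The members without an entry were PDIA3, DERL1, DERL3 and SEC24D. The matches follow, read on the strand that carries them, 5′ to 3′, with the fixed letters of the element in capitals.
HSPA5: CCAATcggcggcctCCACG
HSP90B1, distal match: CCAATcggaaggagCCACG
HSP90B1, proximal match: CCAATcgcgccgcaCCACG
CALR: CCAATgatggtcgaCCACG
CANX: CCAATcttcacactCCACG
PDIA6: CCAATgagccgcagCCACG
CRELD2: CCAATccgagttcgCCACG
SERP1: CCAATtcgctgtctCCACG
XBP1: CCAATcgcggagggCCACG

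HSP90B1 was the only one of the 37 with 2 ERSE matches. The variant ERSE-II, which is ATTGG and CCACG with 1 free base between them, was found in 3 members, 8.11% of the 37 against 0.0696% of all genes. None of the 109 further genes held it. HYOU1 held it at 2 places with the same letters.
HYOU1, distal match: ATTGGaCCACG
HYOU1, proximal match: ATTGGaCCACG
HERPUD1: ATTGGgCCACG
SDF2L1: ATTGGtCCACG

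The UPRE core (TGACGTGG), a site of XBP1, was found in 4 members (HYOU1, DNAJC10, SSR3 and TXNDC5), 10.8% against 0.927% of all genes. Of the 109 further genes, 8 held this core. In HYOU1 it overlapped the distal ERSE-II match. The end CCACG alone, which is part of both ERSE and ERSE-II, was found in 78.4% of the members, in 75 of the 109 further genes and in 42.1% of all genes. A match describes the letters and was not tested as a binding site.

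Whole upstream windows of 250 bases are given for 4 members: HSPA5, the master chaperone of the response, HSP90B1, the gene with 2 matches, and the lectin chaperones CALR and CANX, which stood on opposite sides of their controls with siHOXB9. Capitals mark the fixed letters of ERSE on either strand.
HSPA5 (chr9:125241344-125241593, reverse strand): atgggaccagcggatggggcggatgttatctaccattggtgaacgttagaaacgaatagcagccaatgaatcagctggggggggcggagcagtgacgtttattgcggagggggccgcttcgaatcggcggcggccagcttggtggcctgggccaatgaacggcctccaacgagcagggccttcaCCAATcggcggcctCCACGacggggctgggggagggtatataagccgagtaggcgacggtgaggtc
HSP90B1 (chr12:103930160-103930409, forward strand): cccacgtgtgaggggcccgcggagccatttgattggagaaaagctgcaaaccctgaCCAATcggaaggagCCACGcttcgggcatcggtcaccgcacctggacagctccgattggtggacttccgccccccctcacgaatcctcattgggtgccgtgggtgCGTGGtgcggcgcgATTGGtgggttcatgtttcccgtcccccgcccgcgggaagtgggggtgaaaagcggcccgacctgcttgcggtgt
CALR (chr19:12938359-12938608, forward strand): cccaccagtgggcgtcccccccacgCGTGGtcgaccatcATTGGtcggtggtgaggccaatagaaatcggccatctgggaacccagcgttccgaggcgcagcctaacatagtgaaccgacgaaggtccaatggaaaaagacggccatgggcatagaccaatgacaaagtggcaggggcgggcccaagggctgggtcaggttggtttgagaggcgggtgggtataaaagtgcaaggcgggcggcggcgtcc
CANX (chr5:179698679-179698928, forward strand): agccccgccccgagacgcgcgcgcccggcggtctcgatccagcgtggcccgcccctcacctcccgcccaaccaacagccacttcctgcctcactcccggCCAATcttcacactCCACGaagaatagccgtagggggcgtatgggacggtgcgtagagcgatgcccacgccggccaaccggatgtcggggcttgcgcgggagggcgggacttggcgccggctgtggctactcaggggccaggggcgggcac

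In HSPA5 the match began 66 bases before the start, and in CANX 151 bases before the start shown. CANX has 4 listed starts, and the one shown lies inside the annotated span of the gene. For a gene with several starts, the start with the most matches was taken, or the first listed where starts tied. A gene was counted as holding an element if any of its starts did, for members and all genes alike. In HSP90B1 the matches began 194 and 89 bases before the start, the second of them on the opposite strand. In CALR the match lay on the opposite strand, 225 bases before the start.

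**Figure D1:**
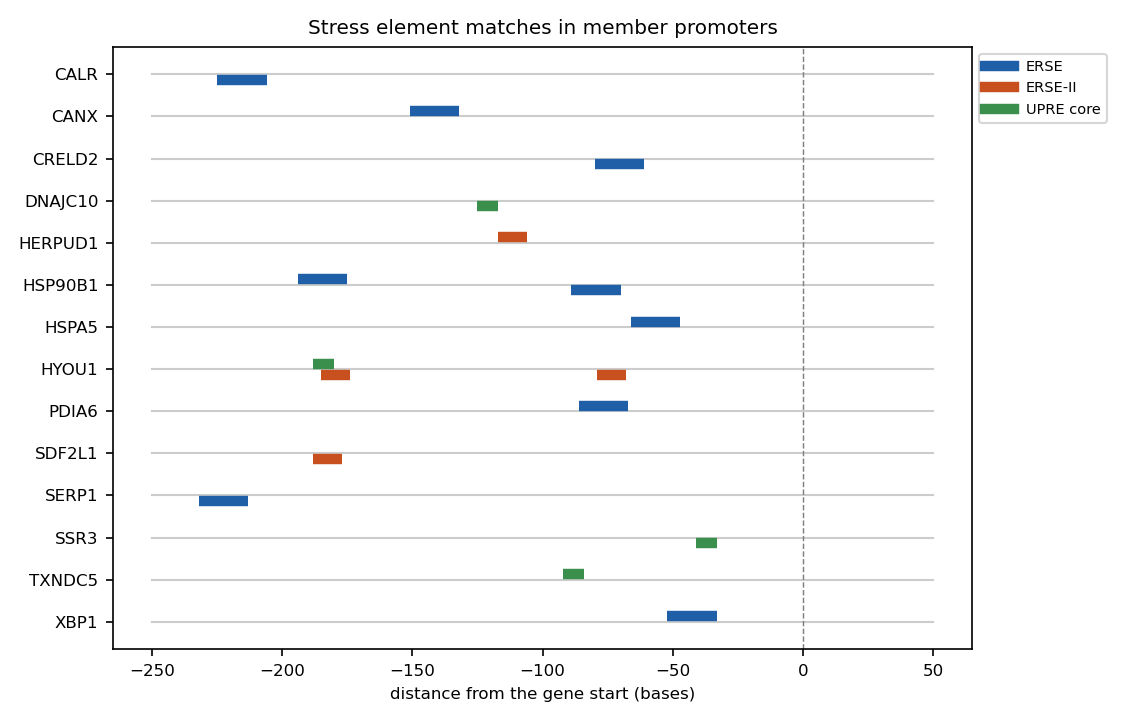
Position of ERSE (blue), ERSE-II (orange) and UPRE core (green) matches in the 14 member promoters that held 1 or more of them, by distance from the gene start in bases (0, dashed line). Bars above a grey line lie on the strand of the gene and bars below it on the opposite strand. The matches lay between 232 and 34 bases before the start. Where a gene has several starts, the one with the most matches is drawn.

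The libraries were comparable in size. Depth, estimated from low values of genes with a single transcript, was 10610000 to 12980000 fragments, so a single fragment from 2 kb of transcript is worth 0.0443 to 0.0542 FPKM (fragments per kilobase of transcript, scaled to the size of the library). Between 12537 and 12770 genes reached 1 FPKM. HOXB9 was at 16.4 FPKM in AGS siScramble and 4.44 FPKM in AGS siHOXB9, and at 1.14 and 0.218 FPKM in MKN1, so the knockdown was visible in both lines, from a low level in MKN1. The epithelial keratins KRT8 (1077 to 1880 FPKM) and KRT18 (654 to 837 FPKM) were high in all 4 libraries. The other epithelial markers separated the lines: KRT19 was at 838 and 1001 FPKM in AGS but at 2.02 and 2.66 FPKM in MKN1, EPCAM at 328 and 359 against 2.14 and 2.70 FPKM, and CDH1 at 1.63 and 3.28 against 0.0752 and 0.285 FPKM. Of leukocyte markers, CD3E was listed at 0 in all libraries and PTPRC reached at most 0.0183 FPKM, while CD68 was at 2.67 to 12.7 FPKM. Of fibroblast markers, COL1A1 was at 15.8 to 43.8 FPKM, and COL3A1 at 17.4 and 20.2 FPKM in MKN1 and at most 0.0874 FPKM in AGS. The fibroblast markers DCN and PDGFRB were low in all libraries, at most 1.52 and 1.31 FPKM. Of endothelial markers, CDH5 reached at most 1.95 FPKM and VWF at most 0.0466 FPKM. The part of these marker differences in the line differences below was not tested.

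All 41 members reached 1 FPKM in MKN1 and 40 did in AGS, where DERL3 did not. Folding genes were among the abundant transcripts. The median member was at 120 FPKM in AGS siScramble, 115 in AGS siHOXB9, 61.5 in MKN1 siScramble and 72.1 in MKN1 siHOXB9, and 18 to 21 members reached 100 FPKM in a library. The lectin chaperone CALR was the highest member in both AGS libraries and in MKN1 siHOXB9, and the proline isomerase PPIB was the highest in MKN1 siScramble (831 FPKM, beside 829 FPKM for CALR). The kinase sensors ERN1 and EIF2AK3 were the lowest members in MKN1 and the lowest after DERL3 in AGS. The order of levels was much alike in the lines: over the 41 members Pearson's r of log2(FPKM + 1) was 0.934 between the siScramble libraries of AGS and MKN1 and 0.928 between the siHOXB9 libraries, where all genes reaching 1 FPKM in a library gave 0.773 and 0.764. These are descriptions across genes, which are not independent.

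**Figure D2:**
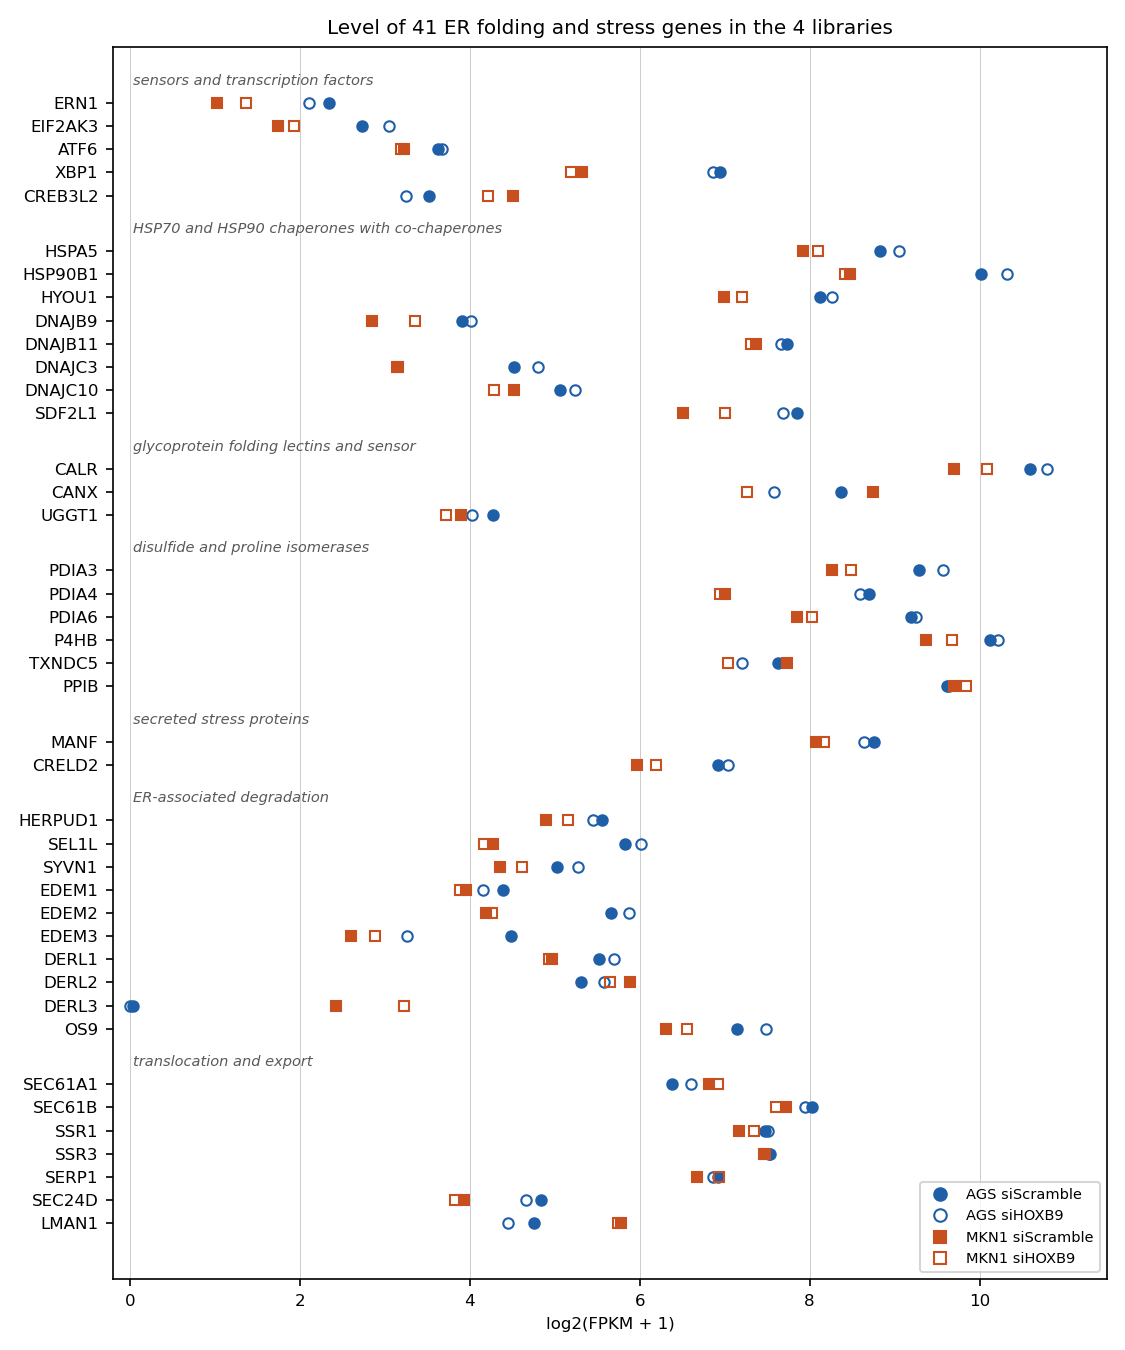
Level of each member as log2(FPKM + 1) in the 4 libraries, grouped by role. Each symbol is 1 library: circles AGS, squares MKN1, filled siScramble, open siHOXB9. The squares lie to the left of the circles for most members, and the CANX and TXNDC5 symbols are instead separated by siRNA.

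The largest differences of the gene set lay between the cell lines. In all, 34 of 41 members were lower in MKN1 than in AGS (54.2% of all 13758 genes tested), and in 32 both MKN1 libraries lay below both AGS libraries, which was so for 44.0% of all genes. Both MKN1 libraries lay above both AGS libraries in 6 members (35.8% of all genes). With line and siRNA as terms in a fit of log2(FPKM + 1), a scale on which differences of low genes are understated, limma called 13 members lower in MKN1 by at least 2-fold at an adjusted p of 0.05 (20.9% of all genes) and 2 higher (16.2%). Without the size rule it called 24 lower (32.9%) and 3 higher (26.1%). Of the 13, 7 were called after each library was centred on its median gene, where ERN1, EIF2AK3, HYOU1, SDF2L1, PDIA3 and EDEM3 fell short of 2-fold, and 8 were called when genes of low level were not filtered out, where DERL3 and LMAN1 were not called either. EDEM3 was also not called with a pseudocount of 0.1 FPKM, with libraries rescaled to a common total or after quantile normalization. The median difference of the members was -0.67 on the log2 scale, and that of all genes tested was -0.10. Summed over the members, 9917 and 10495 FPKM in AGS compare with 6141 and 6483 FPKM in MKN1, which is 1.19% and 1.35% of all FPKM in AGS and 0.783% and 0.785% in MKN1. The libraries of a line received different siRNAs and nothing says that they came from separate cultures, so these p-values do not measure the spread between cultures. They rest on 4 libraries, and limma drew most of each gene's variance from all genes tested. The fit had 6.172 prior degrees of freedom against 1 residual. In such bulk RNA fewer cells that make a transcript and less of it per cell cannot be told apart.

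Among the sensors and transcription factors, XBP1 differed most. It was at 122 and 115 FPKM in AGS and at 39.0 and 35.6 FPKM in MKN1, in the order siScramble and siHOXB9, and the limma difference was -1.64 (SE 0.167, adjusted p = 0.000165). The lines did not overlap, and XBP1 hardly differed between the siRNAs. The kinases were scarce transcripts. EIF2AK3 was at 5.62 and 7.25 FPKM in AGS and at 2.34 and 2.80 FPKM in MKN1 (difference -1.05, SE 0.214, adjusted p = 0.00444). ERN1 was at 4.06 and 3.30 FPKM in AGS and at 1.04 and 1.58 FPKM in MKN1 (difference -1.02, SE 0.238, adjusted p = 0.00815). Both kinases were thus lower in each MKN1 library than in either AGS library. ATF6, at 11.3 and 11.8 FPKM in AGS and 8.35 and 8.11 FPKM in MKN1, did not pass the test (difference -0.45, SE 0.201, adjusted p = 0.0924). CREB3L2, a membrane-bound factor of the ATF6 type that drives secretory capacity, was the exception in direction, with 10.5 and 8.50 FPKM in AGS and 21.7 and 17.5 FPKM in MKN1 (difference 0.97, SE 0.193, adjusted p = 0.00405).

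All 8 chaperones and co-chaperones of the HSP70 and HSP90 systems were lower in MKN1, and 7 passed the test. Of all genes, 54.2% were lower and 32.9% were called lower. HSP90B1, the ER form of HSP90 (GRP94), was at 1035 and 1275 FPKM in AGS and at 355 and 340 FPKM in MKN1, which is 2.92 times as high in AGS with siScramble and 3.75 times with siHOXB9 (limma difference -1.72, SE 0.180, adjusted p = 0.000191). HSPA5, the ER HSP70, was at 455 and 531 FPKM in AGS and at 242 and 273 FPKM in MKN1 (difference -0.93, SE 0.164, adjusted p = 0.00231). No AGS library overlapped an MKN1 library for either chaperone. HYOU1, a nucleotide exchange factor of BiP, was at 277 and 306 FPKM against 126 and 146 FPKM (difference -1.10). The J-domain co-chaperones, which stimulate the ATPase of BiP, differed by -1.51 for DNAJC3, -0.86 for DNAJB9 and -0.75 for DNAJC10, and SDF2L1, which works in a complex with DNAJB11, by -1.01. DNAJB11 itself was at 211 and 201 FPKM against 164 and 158 FPKM and did not pass (difference -0.35).

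The isomerases were divided. PDIA4, a disulfide isomerase, was at 414 and 385 FPKM in AGS and at 127 and 122 FPKM in MKN1 (difference -1.67, SE 0.163, adjusted p = 0.000133). PDIA6 was at 583 and 607 FPKM against 230 and 259 FPKM (difference -1.28) and PDIA3, which acts on glycoproteins bound to the lectins, at 623 and 756 FPKM against 307 and 358 FPKM (difference -1.05). These AGS values were all above the MKN1 values. Exons of PDIA6 overlap those of ATP6V1C2 on the opposite strand, at 45.5 and 46.8 FPKM in AGS and 18.0 and 18.4 FPKM in MKN1. P4HB, the classical disulfide isomerase and a subunit of prolyl 4-hydroxylase, differed by less (difference -0.65, adjusted p = 0.0154). PPIB, a collagen-folding cyclophilin, and the thioredoxin-domain protein TXNDC5 did not pass (differences 0.14 and -0.03). Of the lectin cycle, CALR was lower in MKN1 (1547 and 1768 FPKM against 829 and 1085 FPKM, difference -0.80, adjusted p = 0.00647), and its membrane-bound relative CANX and the folding sensor UGGT1 did not pass (differences 0.03 and -0.34). The secreted stress proteins were both lower in MKN1, CRELD2 with a difference of -0.90 and MANF with -0.58.

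ER-associated degradation returns misfolded proteins to the cytosol. By the test, 6 of its 10 members were lower in MKN1 and 1 was higher (32.9% and 26.1% of all genes). SEL1L, the adaptor of the ubiquitin ligase HRD1, was at 55.6 and 63.7 FPKM in AGS and at 18.3 and 17.0 FPKM in MKN1 (difference -1.70, SE 0.183, adjusted p = 0.000221). HRD1 itself, encoded by SYVN1, was at 31.7 and 37.7 FPKM against 19.4 and 23.5 FPKM (difference -0.67, adjusted p = 0.0144). The ligase and its adaptor were thus lower in the same line by different amounts. SYVN1 shares exon sequence with FAU on the same strand, which was far higher, at 574 to 742 FPKM in the 4 libraries. It also overlaps MRPL49 on the opposite strand, at 56.3 to 83.5 FPKM. Whether reads of these genes enter the SYVN1 value was not tested. EDEM2, which trims mannose from misfolded glycoproteins, was at 49.6 and 57.7 FPKM against 17.2 and 18.2 FPKM (difference -1.54), OS9, a lectin that delivers them to HRD1, differed by -0.88, and DERL1, a channel component, by -0.65. EDEM3, which also trims mannose, was called lower (difference -1.13, SE 0.345, adjusted p = 0.0249), although its AGS libraries were themselves apart, at 21.3 and 8.62 FPKM against 5.06 and 6.37 FPKM in MKN1. EDEM1 and HERPUD1 did not pass (differences -0.36 and -0.47).

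The derlins, 3 related membrane proteins of the degradation channel, had different patterns. DERL3 was detected in MKN1 (4.37 and 8.35 FPKM) and was near the value of a single fragment in AGS, at 0.027 FPKM with siScramble and listed at 0 with siHOXB9. It was the largest difference among the members on the log2(FPKM + 1) scale (2.81, SE 0.263, adjusted p = 0.00011), and its size depends on the pseudocount (5.77 with 0.1 FPKM). DERL2 was at 38.5 and 46.8 FPKM in AGS and at 58.0 and 49.3 FPKM in MKN1 and did not pass (difference 0.33), and DERL1, given above, was lower in MKN1. Exons of DERL3 overlap those of SMARCB1 on the opposite strand, and SMARCB1 was at 71.9 to 99.0 FPKM in all 4 libraries.

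Translocation and export genes differed least between the lines, with a median of -0.09. The signal sequence receptor subunits SSR1 and SSR3, the translocon subunits SEC61A1 and SEC61B and the translocon-associated SERP1 did not pass the test. SEC24D, a cargo adaptor of COPII vesicles, was lower in MKN1 (27.6 and 24.2 FPKM against 14.2 and 13.2 FPKM, difference -0.87, adjusted p = 0.00555). LMAN1, a cargo receptor for glycoproteins leaving the ER, was higher there, with 26.1 and 20.9 FPKM in AGS and 54.0 and 52.6 FPKM in MKN1 (difference 1.16, SE 0.181, adjusted p = 0.00131). LMAN1 and SEC24D, which act at the same step, thus stood on opposite sides.

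**Figure D3:**
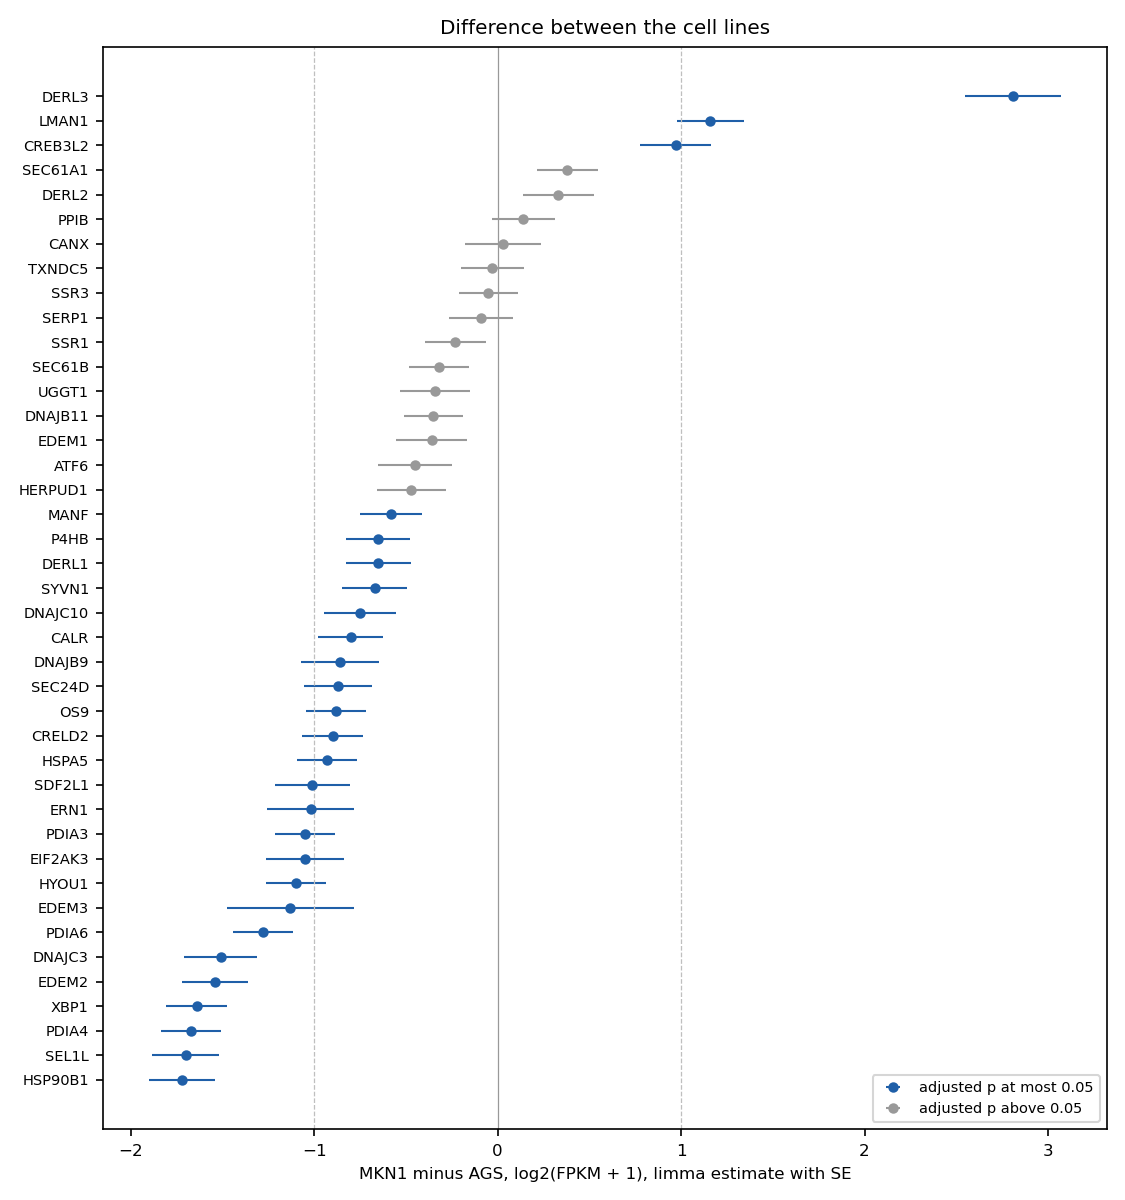
Difference MKN1 minus AGS for each member on the log2(FPKM + 1) scale, as the limma estimate from 4 libraries with its SE, whose variance is drawn in part from all genes. Blue points had an adjusted p of at most 0.05 and dashed lines mark 2-fold. HSP90B1 (-1.72) is lowest, and DERL3 (2.81), LMAN1 (1.16) and CREB3L2 (0.97) are the members called higher.

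The line difference was seen with and without stress elements in the promoter. Of all genes 54.2% were lower in MKN1 and 32.9% were called lower. Of the 8 members with an ERSE match, 7 were lower in MKN1 and 6 passed the test, with CANX (0.03) and SERP1 (-0.09) the ones that did not, and the median difference was -0.92. With ERSE or ERSE-II, 10 of 11 members were lower and 8 passed, with a median of -0.93. Of 26 members with neither ERSE nor ERSE-II, 21 were lower and 13 passed, with a median of -0.52. Whether the groups differ was not tested.

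The comparison of siHOXB9 with siScramble asked which genes the knockdown changes. Most of the folding machinery differed little. In AGS 22 of 40 measured members were higher and 18 lower with siHOXB9 (43.0% and 57.0% of 13252 genes measured), with a median log2 change of 0.04 against -0.06 for all genes. In MKN1 23 of 41 were higher and 18 lower (63.1% and 36.9% of 13122 genes), with a median of 0.09, the same as for all genes. In size, 33 members in AGS and 34 in MKN1 differed by less than 0.3. The share of all genes within this size was not counted, and genes were not matched by level. These counts therefore do not set the members apart from other abundant genes. By a rule of 2-fold, 1 member was lower in each line and none was higher, where 2.21% of all genes were lower and 1.68% higher in AGS (3.89% in either direction), and 1.94% and 2.10% in MKN1 (4.05% in either direction). By 1.5-fold, EDEM3 and CANX were lower in AGS and none was higher (8.37% and 5.64% of all genes), and in MKN1 CANX and TXNDC5 were lower (5.39%) and DERL3 was higher (7.96%). Over both lines 15 members were higher in both (29.2% of 11547 genes), 11 lower in both (23.9%) and 14 went in opposite directions (46.9%).

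**Figure D4:**
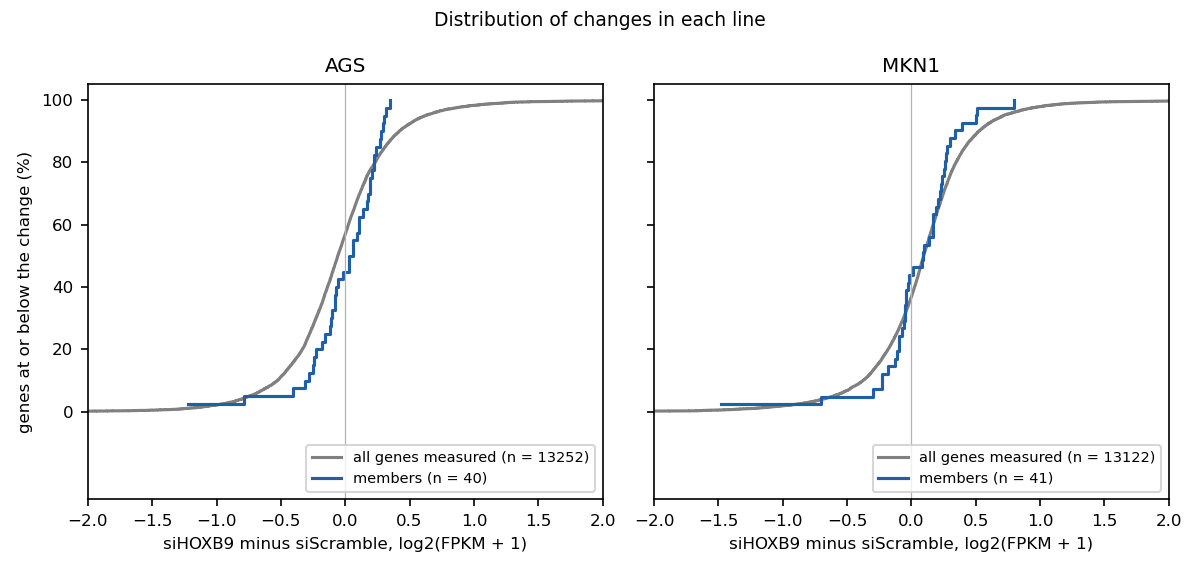
Cumulative distribution of the change with siHOXB9 on the log2(FPKM + 1) scale in AGS (left) and MKN1 (right), for all genes measured (grey) and for the members (blue). The member curve is steeper than that of all genes around 0, with a few members in a lower tail that ends at EDEM3 (-1.22) in AGS and CANX (-1.48) in MKN1. The members and all genes were not matched by level.

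CANX, the membrane-bound lectin calnexin that holds newly made glycoproteins until they fold, had the largest change of the members in MKN1 and the largest after EDEM3 in AGS. It was at 330 FPKM with siScramble and 191 FPKM with siHOXB9 in AGS, and at 427 and 152 FPKM in MKN1. Both siHOXB9 libraries were thus below both siScramble libraries, at 57.8% and 35.7% of their controls, which is -0.79 and -1.48 on the log2 scale. limma estimated -1.13 for the lines together (SE 0.208, unadjusted p = 0.000879). Its adjusted p was 0.256 over 13758 genes, so CANX did not pass. limma called 1 gene in all (0.00727% of those tested) and no member, while 980 genes (7.12%) and 2 members had an unadjusted p under 0.05. The knocked-down gene HOXB9 did not pass this limma test either (estimate -1.25, SE 0.268, unadjusted p = 0.00219, adjusted p = 0.355). When 200 genes were shifted in simulated data of this design, the test recovered 2 at a log2 shift of 1, with 1 false call, and 198 at a shift of 2, with 15 false calls. CANX lies on chromosome 5 from 179678628 to 179730925 (GRCh38) and has 19 annotated transcripts, over which the authors' gene value is one number. Its exons overlap those of CBY3 on the opposite strand, which was listed at 0 in 3 libraries and at 0.0441 FPKM in MKN1 siHOXB9.

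The soluble counterpart of calnexin, calreticulin (CALR), was higher with siHOXB9 in both lines. CALR was at 1547 FPKM with siScramble and 1768 FPKM with siHOXB9 in AGS, and at 829 and 1085 FPKM in MKN1, changes of 0.19 and 0.39. The estimate over both lines was 0.29 (SE 0.177, adjusted p = 0.820). The third gene of this group, UGGT1, which marks unfinished glycoproteins for another round with the lectins, was at 18.4 and 15.3 FPKM in AGS and at 13.9 and 12.2 FPKM in MKN1 (-0.25 and -0.18). CALR and UGGT1 did not pass the test, and the 3 genes of the cycle were not on the same side of their controls.

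TXNDC5 was the other member with an unadjusted p under 0.05. It was at 196 FPKM with siScramble and 147 FPKM with siHOXB9 in AGS, and at 212 and 130 FPKM in MKN1, which is 75.2% and 61.5% of the controls. As for CANX, both siHOXB9 values lay below both siScramble values, and the levels of the lines were alike. The limma estimate was -0.55 (SE 0.171, unadjusted p = 0.0139, adjusted p = 0.616). TXNDC5, on chromosome 6 from 7881517 to 7910814, shares exons with the readthrough gene BLOC1S5-TXNDC5 on the same strand, which was listed at 0 in 3 libraries and at 0.00243 FPKM in MKN1 siHOXB9. The other isomerases differed by -0.10 to 0.28 in AGS and by -0.05 to 0.30 in MKN1. PDIA3 was higher in both lines (0.28 and 0.22), and PDIA4 lower in both by little (-0.10 and -0.05).

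**Figure D5:**
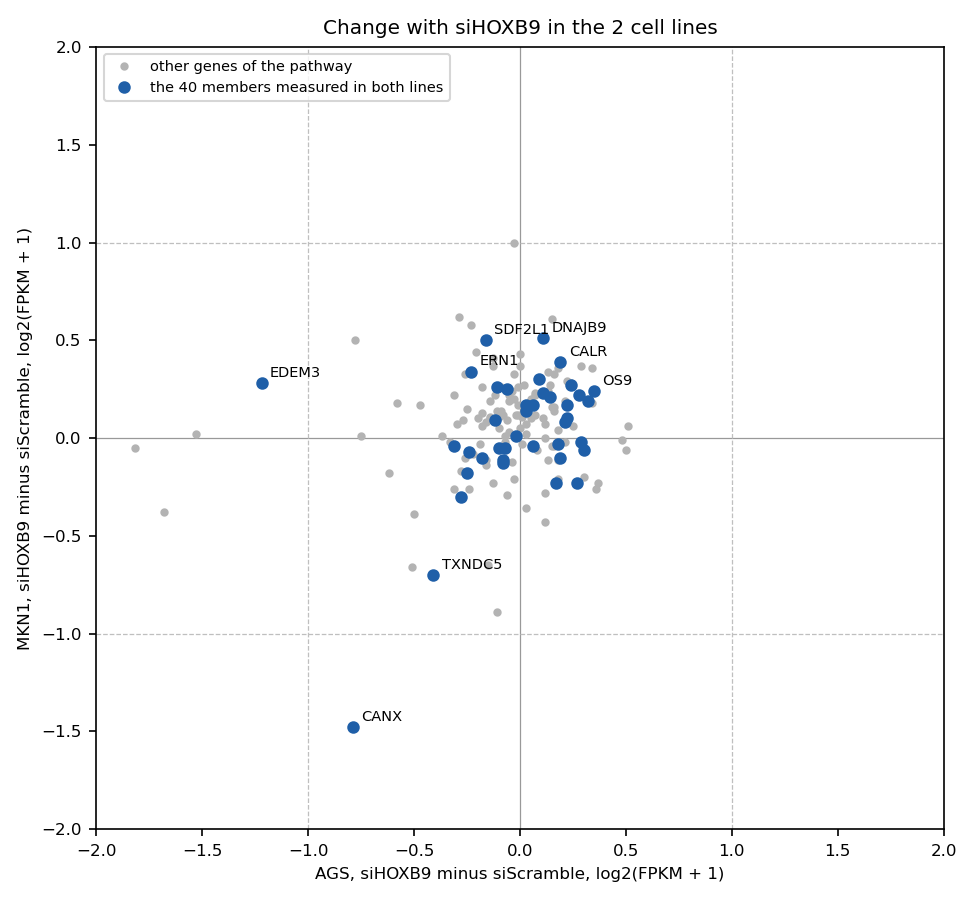
Change with siHOXB9 in AGS (horizontal) and in MKN1 (vertical) on the log2(FPKM + 1) scale, for 40 members (blue) and for the other genes of the pathway (grey). Dashed lines mark 2-fold. CANX and TXNDC5 lie at the lower left and EDEM3 at the left, away from the cluster of members around 0.

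EDEM3, a mannose-trimming protein of ER-associated degradation related to EDEM1 and EDEM2, was the member past 2-fold in AGS. It was at 21.3 FPKM with siScramble and 8.62 FPKM with siHOXB9 in AGS (-1.22), and at 5.06 and 6.37 FPKM in MKN1 (0.28). The siRNA libraries of AGS were thus apart, and those of MKN1 lay closer together and in the other order. Its relatives were closer to their controls: EDEM1 differed by -0.24 in AGS and -0.07 in MKN1, and EDEM2 by 0.21 and 0.08. EDEM3, on chromosome 1 from 184690231 to 184754913, shares no exon with another annotated gene and has 6 transcripts.

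Of the other degradation genes, OS9 and SYVN1 were higher in both lines. OS9 was at 140 and 179 FPKM in AGS and at 78.6 and 92.8 FPKM in MKN1 (0.35 and 0.24), and SYVN1 was higher in both lines by 0.24 and 0.27. SEL1L was higher in AGS (0.19) and lower in MKN1 (-0.10), as was DERL1 (0.18 and -0.03), and HERPUD1, a stress-induced partner of the ligase, was lower in AGS (-0.11) and higher in MKN1 (0.26). DERL3 was measured in MKN1 alone, where it was at 4.37 FPKM with siScramble and 8.35 FPKM with siHOXB9 (0.80). DERL2 was at 38.5 and 46.8 FPKM in AGS and 58.0 and 49.3 FPKM in MKN1 (0.27 and -0.23).

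Among the sensors and factors none passed the test for the knockdown. EIF2AK3 was higher in both lines, at 129% and 120% of its control (0.32 in AGS and 0.19 in MKN1). ERN1 was at 81.4% of its control in AGS and 152% in MKN1 (-0.23 and 0.34), and with a pseudocount of 0.1 FPKM its value in MKN1 was 0.56. ATF6 differed by 0.06 and -0.04. XBP1 was slightly lower in both lines (-0.08 and -0.13), and CREB3L2 was at about the same share of its control in both, 80.6% in AGS and 80.4% in MKN1 (-0.28 and -0.30).

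HSPA5, the classical target of the response, was at 117% of its control in AGS and 113% in MKN1 (0.22 and 0.17, estimate over both lines 0.20, SE 0.164, adjusted p = 0.875). HSP90B1 was higher in AGS and not in MKN1, at 123% and 95.9% of the control (0.30 and -0.06). HYOU1 was higher in both lines (0.14 and 0.21), as were CRELD2 (0.11 and 0.23) and P4HB (0.09 and 0.30). In MKN1 the chaperone genes furthest above their controls were DNAJB9, a co-chaperone that restrains IRE1, with 6.18 FPKM against 9.21 FPKM (0.51), and SDF2L1, with 89.9 FPKM against 127 FPKM (0.50). In AGS DNAJB9 was at 14.0 and 15.2 FPKM (0.11) and SDF2L1 at 230 and 205 FPKM (-0.16). Exons of DNAJB9 overlap those of PNPLA8 and THAP5 on the opposite strand. PNPLA8 was at 12.1 and 8.45 FPKM in AGS and 3.93 and 5.60 FPKM in MKN1, and THAP5 at 2.29 and 3.28 against 5.37 and 4.38 FPKM. The 8 ERSE members had medians of 0.08 in AGS and 0.17 in MKN1, with CANX the one that differed most. The translocation and export genes differed by -0.31 to 0.22 in AGS, with LMAN1 lowest, and by -0.11 to 0.25 in MKN1.

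The wider pathway was described with 124 further genes with a row, chosen by function. None of them was called by limma over both lines. In AGS 50 were higher and 68 lower of 118 measured (43.0% and 57.0% of all genes). In MKN1 81 were higher and 39 lower of 120 (63.1% and 36.9% of all genes). The medians were -0.04 in AGS and 0.10 in MKN1, where those of all genes were -0.06 and 0.09. By the 2-fold rule 3 were lower in AGS (2.21% of all genes) and 1 was higher in MKN1 (2.10%). The 3 were CHAC1, a glutathione-degrading enzyme (54.9 FPKM against 14.9 FPKM), ASNS, asparagine synthetase (76.0 against 23.1 FPKM), and DDIT4, an inhibitor of mTORC1 (178 against 60.9 FPKM). In MKN1 these differed by -0.05, -0.38 and 0.02. All 3 are on the list of PERK and ATF4 output. Of its 11 genes, 8 were lower and 3 higher in AGS (57.0% and 43.0% of all genes). In MKN1 6 were lower and 5 higher (36.9% and 63.1% of all genes). The factor ATF4 itself was at 373 and 249 FPKM in AGS and at 156 and 176 FPKM in MKN1 (-0.58 and 0.18), and TRIB3, a pseudokinase, was at 58.2% of its control in AGS. The 3 that were higher in AGS were PPP1R15A (143% of control), which brings a phosphatase to eIF2alpha, ATF5 (144%) and ATF3 (110%). The gene past 2-fold in MKN1 was ATF6B, a relative of ATF6 on chromosome 6, at 1.95 and 9.27 FPKM (1.80). It was listed at 0 in both AGS libraries and shares exons with TNXB. RNF5, a ubiquitin ligase gene near it on chromosome 6, was listed at 0 in all 4 libraries. Whether a gene listed at 0, here or above, had no transcript or a failed estimate was not tested.

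DDOST, a subunit of the oligosaccharyl transferase that adds the glycans CANX reads, was lower in both lines, with 425 FPKM against 299 FPKM in AGS and 186 against 117 FPKM in MKN1 (estimate -0.58, SE 0.165, unadjusted p = 0.00909, adjusted p = 0.556). MLEC, malectin, which binds an early form of these glycans, was also lower in both (122 against 85.7 FPKM and 57.5 against 43.7 FPKM, estimate -0.45, adjusted p = 0.663). Neither passed the test. Of the other transferase subunits on the list, STT3A (-0.08) and MAGT1 (-0.14) had estimates slightly below their controls. The estimates of RPN1, RPN2, DAD1, OSTC, STT3B and TUSC3 lay between 0.01 and 0.25. DDOST shares exons with PINK1-AS on the same strand. SIL1, a nucleotide exchange factor of BiP, went in opposite directions (124 against 71.9 FPKM in AGS, 56.6 against 80.4 FPKM in MKN1). SEC23B, of the COPII coat, was at 31.1 and 63.0 FPKM in MKN1 and at 61.0 and 59.9 FPKM in AGS.

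Between the lines, 41 of 120 further genes were called lower in MKN1 (32.9% of all genes) and 23 higher (26.1%), with a median of -0.20 against -0.10 for all genes. CREB3L1, a membrane-bound stress factor related to CREB3L2, was at 35.3 and 33.7 FPKM in AGS and at 1.22 and 0.813 FPKM in MKN1 (difference -4.15, SE 0.210), so the relatives CREB3L1 and CREB3L2 were higher in different lines. CHAC1 was lower in MKN1 as well (difference -2.92). The differences largest in size went the other way. TUSC3 was at 0.319 and 0.647 FPKM in AGS and at 163 and 183 FPKM in MKN1 (difference 6.88). PPIC was at 0.0685 and 0.00604 FPKM against 37.9 and 40.3 FPKM (difference 5.27). As for DERL3, the size of both depends on the pseudocount. The folding factor FKBP10 was also higher in MKN1, with 17.1 and 18.9 FPKM against 271 and 321 FPKM (difference 3.96).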

How the data were processed

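Poly(A) RNA was sequenced in 1 library per line and siRNA, per the labels. The deposited table gives FPKM by gene symbol, computed by the authors. Per the submitters' processing notes the builds were GRCh38 and hg38. The sources used here do not give the aligner, the quantifier, the annotation or a strand-specific step, so reads of overlapping genes may be mixed. Of the members, 23 share exon sequence with another gene in GENCODE release 29 and 18 do not. Columns were matched to samples by line and siRNA. The title of the MKN1 siScramble sample spells the line MNK1, and its description gives MKN1.

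The members and lists were chosen with earlier results of these data known. Changes within a line were log2 differences of FPKM + 1 among genes reaching 1 FPKM in 1 or both of its libraries, with no test. Over all libraries limma 3.58.1 (R 4.3.3) modelled log2(FPKM + 1) on line and siRNA with an intensity trend, among 13758 genes with at least 1 FPKM in 2 or more libraries. It had 1 residual degree of freedom and 6.172 prior ones, drawn from all genes tested. p-values were two-sided and adjusted by Benjamini-Hochberg, and the fit was tested on simulated data. Named were members with the 6 largest changes or line differences, the sensors, HSPA5, HSP90B1, members past 2-fold or the test, and, of the further genes measured in both lines and reaching 5 FPKM in a library, up to 4 per role with the largest mean size of change over the lines. ATF6B, not measured in AGS, and ATF4, TRIB3, PPP1R15A, ATF5, ATF3, RNF5, PPIC and FKBP10 lie outside this rule and were chosen after their values were seen. The same holds for the oligosaccharyl transferase subunits other than DDOST. FPKM hold no counts; depth was estimated from single-transcript genes with lengths shortened by 260 bases, where 63.2% to 66.2% of values lay within 0.05 of a whole fragment number. Alternatives were a pseudocount of 0.1, no filter or a filter of 5 FPKM, other scalings, a 1.5-fold rule and other variance options.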

Additional observations from a re-analysis of the deposited data

Results flagged for a closer look

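EDEM3 is listed because its change with siHOXB9 was more than 0.26 in size in both lines and had opposite signs, -1.22 in AGS and 0.28 in MKN1. Each value compares 1 library with 1 other, and the difference between the lines was not tested. Over the 6 other settings tried, the change ran from -1.30 to -1.13 in AGS and from 0.20 to 0.33 in MKN1. The MKN1 value was under 0.26 with a common total (0.22), centring (0.20) and quantile normalization (0.22), so EDEM3 would not be listed under these. The adjusted p of the siRNA term for EDEM3 lay between 0.744 and 1.00 over all settings.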

How the results depend on the processing

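No member was called for siHOXB9 over both lines under any of the 9 other limma settings. For CANX the adjusted p ran from 0.136 (filter of 5 FPKM) to 1.00 (fit without the line as a term), and the change from -0.79 to -0.69 in AGS and from -1.56 to -1.48 in MKN1. For TXNDC5 the adjusted p ran from 0.488 to 1.00. With a 1.5-fold rule, 2 members were lower in AGS, and in MKN1 2 were lower and 1 was higher. The median change in MKN1 was -0.02 after quantile normalization, where that of all genes was 0.01. The count called lower in MKN1 than in AGS by 2-fold, 13, was 8 without a filter, 7 after centring on the median gene, which moved the median difference of all genes from -0.10 to 0.09, and 24 by the adjusted p alone. The count called higher, 2, was 1 with a filter of 5 FPKM and 0 without a filter. Among all genes past 2-fold, rescaling to a common total moved the share that was higher from 43.2% to 54.2% in AGS, and centring moved it from 52.0% to 41.8% in MKN1. The other counts and medians, 82 under the alternative settings, stayed within 1.5 times of the reported ones, or within 0.1 for a median. No library could be left out, since each group has 1. The labels carry no replicate numbers; the reported fit compares the siRNAs within each line, and the fit without the line as a term is the unpaired one. Depth limits DERL3 in AGS, near the value of 1 fragment.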
